A study of Mus musculus with 12 samples.

Results

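Cortex of mice given intracellular sigma peptide (ISP) after a stroke was compared with cortex labelled control. The members are the 4 libraries labelled ISP (ISP 12, 14, 16 and 18) and the 4 labelled control (control 19, 21, 36 and 38), chosen by these labels alone, which is 8 of the 12 libraries of the series. The other 4 libraries, labelled Veh, were left out, and all 25238 genes of the count table entered the comparison. RNA was taken from micro-punches of frozen peri-infarct cortex, the tissue that borders the dead core of an ischemic stroke, and polyadenylated transcripts were sequenced.

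ISP is a membrane-permeable peptide that mimics the wedge domain of the receptor protein tyrosine phosphatase sigma (PTPσ, gene Ptprs), which binds chondroitin sulfate proteoglycans (CSPGs) of the glial scar. The mice of the ISP group had the middle cerebral artery occluded (MCAo) and received the peptide at 1 μg/g/day from day 1, and their brains were collected at day 14. The surgery was done at 10 to 12 weeks of age, in male C57BL/6J mice or in Nestin-creER-Ai9 mice. The latter is a line with an inducible Cre under the Nestin promoter and a Cre reporter, and the methods name both sexes for it. Which line a library came from is not given. All 8 libraries carry the same tissue name, peri-infarct cortex, and the same treatment text, and that text describes only vehicle (DMSO in saline) and ISP. Whether the control mice had a stroke, what they received and on which day they were sampled is not given in the sources used here. A difference between the groups below is therefore a difference between libraries labelled ISP and libraries labelled control. An effect of ISP and an effect of any other difference in what the mice underwent cannot be told apart. Age, sex and cohort are not given per library, and nothing ties the control libraries to the ISP libraries by litter, cage or day.

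The libraries held between 19325979 and 29845629 counted reads. In a principal component analysis of all tested genes the first component took 51.8% of the variance. The control libraries lay between -25.3 and -20.4 on it, ISP 16 at -5.91, ISP 12 at 2.61, ISP 14 at 41.3 and ISP 18 at 51.9, so ISP 14 and ISP 18 stood apart and the main counts and leading genes are also given without them. ISP 18 also held RNA of the choroid plexus, the tissue that makes cerebrospinal fluid. Ttr, the transthyretin gene and the leading transcript of that tissue, had 30986 reads in ISP 18 and 0 to 8 in the other 7 libraries. Kl had 1595 reads there against 1 to 15, Clic6 743 against 0 to 6 and Kcnj13 527 against 0 to 5. Of the 14 genes on the list of choroid plexus and ependyma, 3 passed the filter on low counts, and the summed level of those 3 was 725 CPM (counts scaled to a fixed library size) in the highest ISP library against 183 to 208 CPM in the control libraries. The hemoglobin genes were listed at 0 in every library. Replicates of the same group differed by more than sampling noise in every pair (chi-square per degree of freedom 11.1 to 50.9 over 12 pairs), so none was counted as a repeat of another.

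After a stroke, resident astrocytes enlarge and raise intermediate filament genes, microglia take on phagocytic and antigen-presenting programs, and interferon-induced genes can switch on in several cell types. Together with fibroblasts and blood-derived cells they build a scar whose CSPGs slow growing axons through PTPσ and related receptors. Neurons around the lesion at the same time lose and remodel synapses, channels and secreted peptides. The genes are described below by these cell types and functions.

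Of 25238 genes, 15232 had enough reads to be tested. In edgeR's quasi-likelihood test 1547 genes had a Benjamini-Hochberg adjusted p under 0.1, which is called a change below. Of these, 1026 (6.74% of tested genes) were higher with ISP and 521 (3.42%) lower. With the added demand of a log2 fold change beyond 0.5, 778 (5.11%) were higher and 171 (1.12%) lower. Correcting each library for trends with GC content and length of the genes gave 924 higher and 817 lower, which made 53.1% of called genes higher in place of 66.3%. Higher genes moved further than lower ones. The median log2 fold change (ISP over control) was 0.89 among called higher genes and -0.40 among called lower genes, and 461 higher genes but 26 lower genes passed a log2 fold change of 1. Over all tested genes the median was -0.01. Values of the groups did not overlap, with every ISP library above every control library, for 1075 genes (7.06%), and with every ISP library below for 757 genes (4.97%). A total of 3396 genes had an unadjusted p under 0.05.

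**Figure D1:**
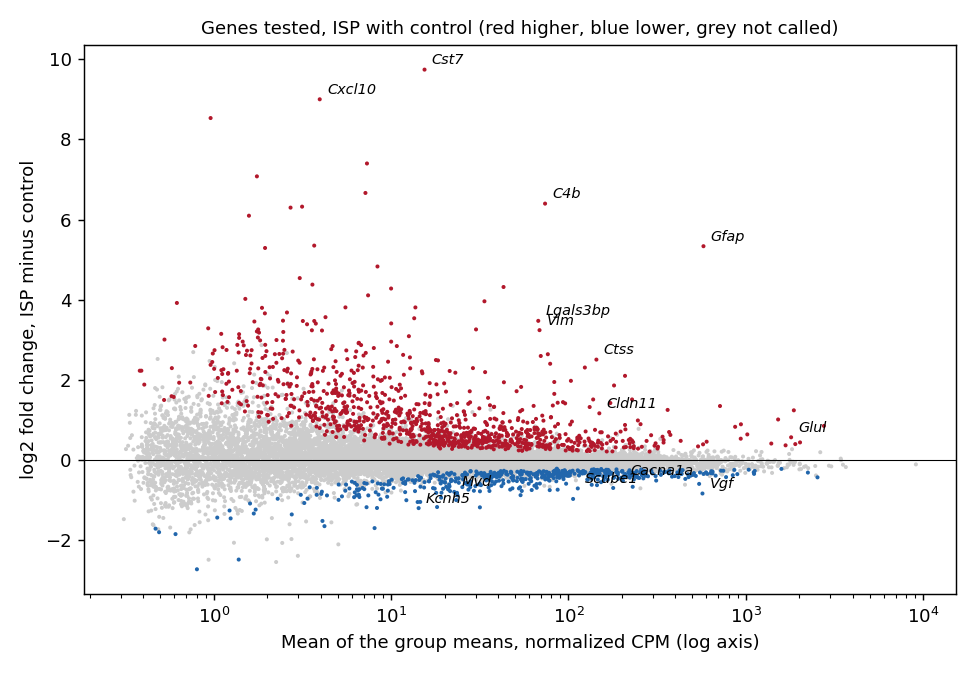
Each point is 1 of the 15232 tested genes, with the mean normalized level over 8 libraries (CPM, log axis) on the x axis and the log2 fold change of ISP over control on the y axis. Red points (1026) were called higher and blue points (521) lower, and grey points were not called. Called higher genes reached log2 fold changes above 5, as for Gfap, C4b, Cst7 and Cxcl10, whereas called lower genes clustered near -0.40.

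Far fewer genes were called without ISP 14 and ISP 18. Without both, edgeR called 90 of 15497 genes, 71 higher (0.458%) and 19 lower (0.123%). All 19 of these lower genes and 70 of the 71 higher genes were also called among the 8 libraries. Among the 1547 genes called with 8 libraries, 1539 kept their sign without ISP 14 and ISP 18. That fit holds only ISP 12 and ISP 16 in the ISP group, and fewer libraries by themselves lower the number of calls. How much of the fall came from fewer libraries and how much from the levels in ISP 14 and ISP 18 was not tested. With 1 library left out at a time the number of called genes ran from 420 (without ISP 14), 486 (without control 38) and 514 (without ISP 18), over 727 (without control 36), 811 (without control 19), 1515 (without control 21) and 1566 (without ISP 12), to 2283 (without ISP 16). A set of 346 genes, 259 higher and 87 lower, was called in all 8 of these fits, and a gene called higher or lower below belongs to it unless the libraries that its call needed are named, with the highest adjusted p reached without one of them. Per-library values are given in the order control 19, 21, 36 and 38 and ISP 12, 14, 16 and 18, in normalized CPM. Errors of log2 fold changes are standard errors of the fit, and all adjusted p-values are edgeR's over all tested genes. In bulk tissue, more cells of a type and more RNA per cell cannot be told apart. Counts of list members called are to be set beside the shares over all tested genes, 6.74% higher and 3.42% lower. A list count near these shares is given as a description and not as a result about the list. Some genes belong to more than 1 list, so the counts of different lists are not independent.

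Gfap (glial fibrillary acidic protein, chr11:102887336-102900912 on GRCm38) marks reactive astrocytes and had the smallest p of all genes. Its levels were 25.1, 31.2, 24.6 and 30.9 CPM in the control libraries and 524, 1290.5, 290.4 and 2401 CPM in the ISP libraries. Every ISP library lay far above every control library, and ISP 16 was the lowest of the 4 and ISP 18 the highest. The log2 fold change was 5.33 ± 0.57, adjusted p = 0.0107, and without ISP 14 and ISP 18 it was 3.87 (adjusted p = 1.03e-06). Vim (vimentin, chr2:13573927-13582826), another intermediate filament gene of reactive glia, was at 16.0, 13.3, 11.3 and 12.0 against 40.2, 163, 23.1 and 270.0 CPM (log2 fold change 3.24 ± 0.62, adjusted p = 0.0246). ISP 12 and ISP 16 stood above the control libraries and ISP 14 and ISP 18 much higher, and without those 2 libraries the log2 fold change was 1.27 (adjusted p = 0.0289).

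Of 35 tested markers of reactive astrocytes 17 were higher and none lower, with a median log2 fold change of 1.17. The number called ran from 11 to 26 over the fits with 1 library left out, it was 5 without ISP 14 and ISP 18, and 11 members were called in all 8 fits. Besides Gfap and Vim they included Serpina3n, a secreted protease inhibitor, at 29.1, 21.9, 26.4 and 23.2 against 49.8, 227, 37.1 and 217 CPM (log2 fold change 2.40 ± 0.50, adjusted p = 0.0275). Cd44, a hyaluronan receptor, was near the detection limit in the control libraries and reached 10 CPM and more only in ISP 14 and ISP 18 (1.11, 0.852, 0.467 and 0.475 against 2.68, 16.5, 2.70 and 19.4 CPM, log2 fold change 3.81 ± 0.67, adjusted p = 0.0205). The transcription factor Stat3, which drives the reactive state, moved less but without overlap (42.6, 42.0, 42.2 and 39.5 against 53.9, 69.2, 54.5 and 64.3 CPM, log2 fold change 0.54 ± 0.10, adjusted p = 0.0208). Igfbp5, a binding protein of insulin-like growth factors, stood at 82.9, 164, 118 and 111 against 264, 376, 209.8 and 502 CPM (log2 fold change 1.51 ± 0.25, adjusted p = 0.0204). The protease inhibitor A2m (log2 fold change 4.83 ± 0.92, adjusted p = 0.024) was also higher. The rest of the 11, C3, Cd14, Cxcl10 and Gbp2, also belong to immune lists described below. Members that were not called included Nes (nestin, log2 fold change 0.38 ± 0.23, adjusted p = 0.361) and Tnc (tenascin C, 1.84 ± 0.85, adjusted p = 0.225). Lcn2, a classic reactive gene, failed the filter on low counts, with 387 reads in ISP 14, 327 in ISP 18 and 0 to 12 in each other library.

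Markers of astrocytes in general moved by less. Of 18 tested, 9 were higher and none lower, with a median log2 fold change of 0.33, 6 to 9 with 1 library left out and 4 without ISP 14 and ISP 18. Glul (glutamine synthetase, which turns glutamate into glutamine, chr1:153899944-153909723) came close behind Gfap by p. It measured 1517, 1441, 1446 and 1417 CPM in the control libraries and 2085, 2298, 2121 and 2089 CPM in the ISP libraries (log2 fold change 0.56 ± 0.07, adjusted p = 0.0162). Every ISP library was above every control library, with ISP 14 the highest, and the log2 fold change without ISP 14 and ISP 18 was 0.54 (adjusted p = 0.0109). Kcnj10, the inward rectifier channel Kir4.1 that buffers potassium, was likewise higher without overlap (229, 241, 222 and 232 against 346, 401, 326 and 342 CPM, log2 fold change 0.61 ± 0.08, adjusted p = 0.0162, and 0.55 without ISP 14 and ISP 18). Slc25a18, a mitochondrial glutamate carrier, was at 66.5, 53.4, 56.8 and 64.9 against 102, 133, 107 and 89.3 CPM (log2 fold change 0.83 ± 0.12, adjusted p = 0.0186). Aqp4 (aquaporin 4, the water channel of astrocyte endfeet) was higher in all ISP libraries and highest in ISP 14 and ISP 18 (47.6, 54.8, 50.1 and 48.4 against 79.7, 197, 80.9 and 187 CPM, log2 fold change 1.44 ± 0.27, adjusted p = 0.0223). Gja1 (connexin 43), Mlc1 (a membrane protein of astrocyte endfeet) and Atp1b2 (a sodium pump subunit) were called in all 8 fits too, with log2 fold changes of 0.69, 0.69 and 0.39. In contrast, the folate enzyme gene Aldh1l1 was at 78.7, 65.8, 69.8 and 76.6 against 68.2, 85.3, 68.9 and 90.7 CPM (log2 fold change 0.11 ± 0.11, adjusted p = 0.618) and the glutamate transporter Slc1a2 at 2347, 2768, 2535 and 2183 against 2589, 3221, 2689 and 2712 CPM (log2 fold change 0.19 ± 0.09, adjusted p = 0.266), with overlapping groups for both.

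Of the other genes with the smallest p among those higher with ISP, Ccl6, Lgals3bp, Fcgr3 and C4b are described below. Adgrg1, an adhesion receptor, was at 49.4, 44.3, 48.9 and 43.1 against 73.0, 70.7, 66.0 and 77.9 CPM (log2 fold change 0.63 ± 0.08, adjusted p = 0.0186). Lfng, a glycosyltransferase that modifies Notch receptors, was at 12.1, 12.7, 12.1 and 11.6 against 21.1, 19.7, 20.8 and 19.4 CPM (log2 fold change 0.74 ± 0.10, adjusted p = 0.0186). Its 4 ISP values differed by less than 2 CPM, and the log2 fold change without ISP 14 and ISP 18 was 0.80 (adjusted p = 0.0295). Synpo2, an actin-binding protein, was low but without overlap (1.18, 1.19, 1.36 and 0.95 against 4.99, 3.99, 3.42 and 4.32 CPM, log2 fold change 1.83 ± 0.26, adjusted p = 0.0186). Spg20 (spartin, log2 fold change 0.68 ± 0.11, adjusted p = 0.0186), Mmd2 (a membrane receptor of the PAQR family, 0.53 ± 0.08, adjusted p = 0.0186) and Selenop (the selenium transport protein, 0.71 ± 0.11, adjusted p = 0.0186) were each higher in all 4 ISP libraries than in any control library. Ptgds (prostaglandin D2 synthase, made by oligodendrocytes and meninges) was at 229.8, 154, 170.0 and 161 against 311, 408, 314 and 292 CPM (log2 fold change 0.89 ± 0.14, adjusted p = 0.0186).

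**Figure D2:**
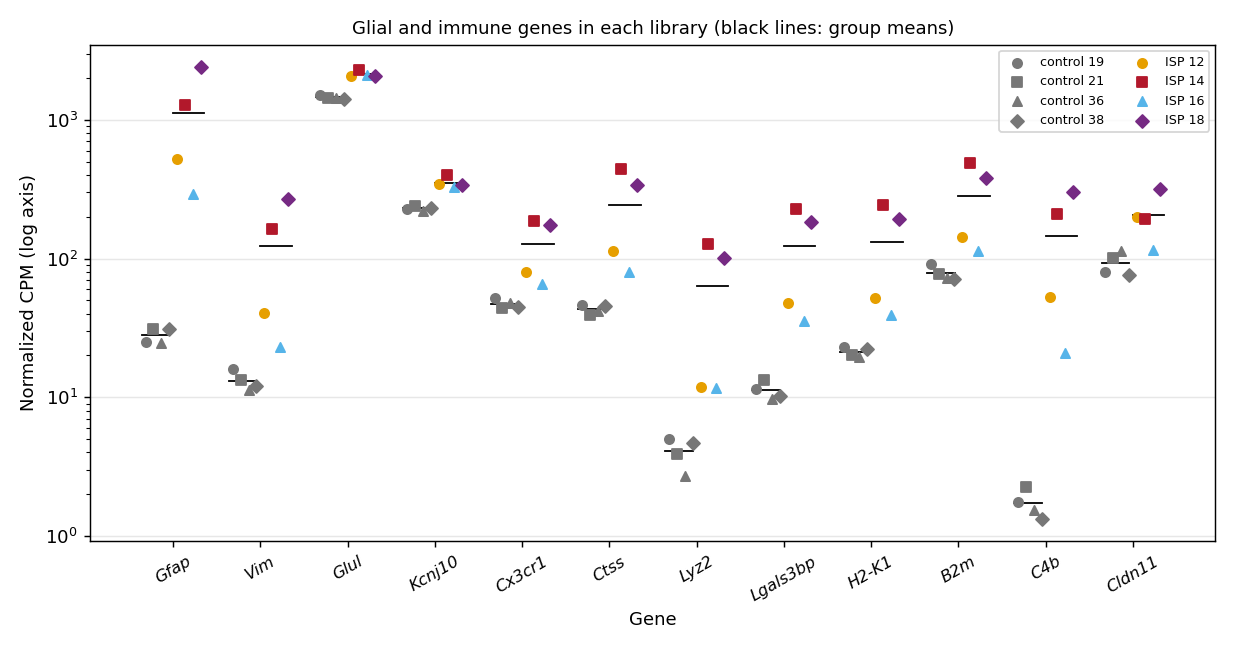
Normalized level (CPM, log axis) of 12 genes of astrocytes, microglia, antigen presentation, complement and myelin in each of the 4 control and 4 ISP libraries, with black lines at the group means. All 4 ISP points lie above all 4 control points for each gene, and for the immune genes ISP 14 and ISP 18 lie far above ISP 12 and ISP 16, which is not so for Glul and Kcnj10.

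Microglia, the resident macrophages of the brain, were represented by a list of genes expressed at rest and a list of genes raised on activation. Of 16 tested homeostatic genes 14 were higher and none lower (median log2 fold change 1.00), with 9 to 15 called with 1 library left out and 6 without ISP 14 and ISP 18. Cx3cr1, the fractalkine receptor, was at 52.2, 43.9, 47.9 and 44.9 against 79.7, 188, 66.1 and 173 CPM (log2 fold change 1.43 ± 0.28, adjusted p = 0.0271, and 0.63 without ISP 14 and ISP 18). P2ry12, a purine receptor that falls in many activated states, was higher as well, though by less (21.3, 22.9, 21.8 and 19.3 against 29.9, 41.9, 27.5 and 34.5 CPM, log2 fold change 0.65 ± 0.13, adjusted p = 0.0273). The groups did not overlap for either gene. Csf1r, the receptor that keeps microglia alive, was at 82.1, 74.7, 74.2 and 70.8 against 114, 257, 111 and 269.7 CPM (log2 fold change 1.32 ± 0.26, adjusted p = 0.0271). The 2 members not called were Tmem119 (log2 fold change 0.67 ± 0.23, adjusted p = 0.115) and Slc2a5 (0.30 ± 0.26, adjusted p = 0.544).

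Of 30 tested genes of activated microglia and macrophages 28 were higher and none lower, with a median log2 fold change of 2.04. The count ran from 15 to 34 with 1 library left out, since further members passed the filter in some of those fits, and it was 8 without ISP 14 and ISP 18. Ctss (cathepsin S, which trims the MHC class II invariant chain, chr3:95526786-95556403) measured 46.0, 39.2, 41.9 and 45.6 CPM in the control libraries and 113, 443, 80.3 and 341 CPM in the ISP libraries (log2 fold change 2.50 ± 0.44, adjusted p = 0.0205, and 1.17 with adjusted p = 0.00467 without ISP 14 and ISP 18). Here ISP 12 and ISP 16 lay above all control libraries, and ISP 14 and ISP 18 lay far above ISP 12 and ISP 16. Lyz2 (lysozyme) followed the same order (4.99, 3.88, 2.72 and 4.66 against 11.8, 128, 11.6 and 101 CPM, log2 fold change 3.96 ± 0.73, adjusted p = 0.0223). Mpeg1, a pore-forming protein of phagocytes, was at 20.5, 20.7, 21.2 and 17.2 against 42.0, 219, 34.4 and 183 CPM (log2 fold change 2.59 ± 0.51, adjusted p = 0.0269). The Fc receptor gene Fcgr3 was at 10.3, 7.88, 7.27 and 7.98 against 19.8, 63.0, 20.5 and 47.4 CPM (log2 fold change 2.17 ± 0.34, adjusted p = 0.0186, and 1.28 without ISP 14 and ISP 18). The lipid receptor gene Trem2 had a log2 fold change of 2.29 ± 0.47, adjusted p = 0.0275, the lipopolysaccharide co-receptor gene Cd14 of 2.22 ± 0.35, adjusted p = 0.0186 and the tetraspanin gene Cd9 of 1.82 ± 0.34, adjusted p = 0.0223.

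Several activation markers were nearly silent in the control libraries. Cst7 (cystatin F) had 3 reads in the 4 control libraries together against 3291 in the ISP libraries, a ratio of depth-scaled reads of 1133 with a 95% exact counting interval of 387 to 5495. In CPM it was 0.0347, 0.0852, 0 and 0 against 2.32, 59.3, 0.819 and 60.8 CPM, so that nearly all of its reads came from ISP 14 and ISP 18. Clec7a (dectin 1) was at 0.243, 0, 0 and 0.0475 against 2.73, 27.4, 1.40 and 26.6 CPM (log2 fold change 7.40 ± 1.19, adjusted p = 0.0186). Counting intervals cover counting error only. Itgax (CD11c) failed the filter with 379 reads in ISP 14, 461 in ISP 18 and 0 to 19 in each other library, and Lgals3 and Cybb did so with 156 and 231, and 235 and 247 reads in ISP 14 and ISP 18. Other leukocyte markers were scarce. No tested member of the lists for border macrophages (0 of 5), lymphocytes (0 of 3) and neutrophils (0 of 1) was called. Among those that failed the filter, Ly6g of neutrophils had 0 reads in all 8 libraries, S100a8 had 8 in ISP 14, 10 in ISP 18 and 0 elsewhere, and the lymphocyte genes Cd3e, Cd3d, Cd8b1 and Gzmb had 24, 6, 1 and 22 in ISP 14, 2, 28, 26 and 24 in ISP 18, and 0 to 2 in each other library. The monocyte genes Ccr2 and Ly6c2 had 60 and 46 reads in ISP 14 and 31 and 61 in ISP 18, against 0 to 6 in each other library. Some members that failed the filter went the other way, with more reads in the control libraries together than in the ISP libraries. They include the lymphocyte gene Cd79a (27 against 14) and the neutrophil genes Ngp (14 against 1) and Retnlg (4 against 0). The macrophage genes Pf4 (45 against 32) and Lyve1 (28 against 24) did so as well. The part of infiltrating cells in the higher levels of ISP 14 and ISP 18 was not tested.

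Genes induced by type I interferon formed the list with the largest share of called members after the microglial ones. Of 38 tested members 31 were higher and none lower, with a median log2 fold change of 2.18. Between 16 (without ISP 14) and 37 (without ISP 16) were called with 1 library left out, 16 were called in all 8 of those fits, and 4 without ISP 14 and ISP 18. In RefSeq's windows of 250 bases before to 50 after the start site (build GRCm38.p6), the core of the interferon-stimulated response element, GAAANNGAAA on one strand or TTTCNNTTTC on the other, was searched on both strands. It was found in 15 of the 29 tested members with a window (51.7%) and in 12 of the 23 members called higher, against 423 of 12004 tested genes (3.52%) and 1079 of all 27025 windows (3.99%). No window was matched for Oas2, Mx2, Usp18, Ifi27l2a, Ifi204, Rtp4, Parp14, Dhx58 and 1 more member. A match of letters is not evidence of binding. The list was made of genes known to be induced by interferon, so a high share follows from its choice. Members called higher had about the same share (52.2%) as all tested members. They made up 23 of the 29, so these shares could hardly differ, and whether the motif goes with being called was not tested. The stretches with matches ahead of the start site are printed for Ifit3 (chr19:34583367-34583456, plus strand), Bst2 (chr8:71537547-71537636, minus strand) and Ifit1 (chr19:34640764-34640853, plus strand), because these 3 genes were called in all 8 fits. Each is written 5′ to 3′ along the gene with the matched letters in capitals.
Ifit3 promoter: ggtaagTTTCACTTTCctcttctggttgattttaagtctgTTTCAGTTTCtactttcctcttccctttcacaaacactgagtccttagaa
Bst2 promoter: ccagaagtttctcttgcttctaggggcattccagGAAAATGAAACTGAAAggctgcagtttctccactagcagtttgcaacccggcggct
Ifit1 promoter: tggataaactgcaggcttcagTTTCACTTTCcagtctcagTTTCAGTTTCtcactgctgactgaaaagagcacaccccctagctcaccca
Ifit3 and Ifit1 carried the motif in 2 places, and in Bst2 a pair of overlapping matches shared the middle GAAA. Ifit3b, a near-identical neighbor of Ifit3, had the same 90 letters at chr19:34607763-34607852, so reads of Ifit3 and Ifit3b may have been split between the copies and their levels are uncertain.

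Ifit3, which encodes an antiviral RNA-binding protein, measured 6.20, 6.18, 3.70 and 5.56 CPM in the control libraries and 11.5, 55.5, 12.5 and 41.9 CPM in the ISP libraries (log2 fold change 2.49 ± 0.46, adjusted p = 0.0221, and 1.16 without ISP 14 and ISP 18). Every ISP library was above every control library, with ISP 14 the highest. Bst2 (tetherin, which holds budding viruses at the membrane) was at 3.81, 2.17, 1.78 and 2.76 against 7.46, 35.3, 4.15 and 28.7 CPM (log2 fold change 2.84 ± 0.58, adjusted p = 0.0275) and Ifit1 at 2.29, 2.17, 1.44 and 2.00 against 4.22, 25.3, 2.80 and 15.6 CPM (log2 fold change 2.60 ± 0.58, adjusted p = 0.0327). For both, ISP 14 and ISP 18 carried most of the difference and the log2 fold change without them was 1.14 and 0.83. Lgals3bp, a secreted glycoprotein that binds galectin 3 (chr11:118392751-118402092), had the smallest p of the list (11.5, 13.4, 9.73 and 10.1 against 48.2, 229.7, 35.3 and 182 CPM, log2 fold change 3.47 ± 0.52, adjusted p = 0.0186, and 1.91 with adjusted p = 0.00021 without ISP 14 and ISP 18). Oasl2, of the oligoadenylate synthetase-like family, was at 1.94, 2.30, 1.23 and 1.85 against 6.95, 48.3, 6.46 and 40.6 CPM (log2 fold change 3.81 ± 0.64, adjusted p = 0.0199). Irf7, the transcription factor that amplifies interferon production, was at 3.02, 2.04, 2.25 and 1.19 against 4.01, 55.5, 4.39 and 35.5 CPM (log2 fold change 3.53 ± 0.76, adjusted p = 0.0296). The order ISP 14 over ISP 18 over ISP 12 and ISP 16 over control held for all 3 of Oasl2, Irf7 and Lgals3bp. Ifi204 (6.30 ± 1.02, adjusted p = 0.0186), Ifi27l2a (2.87 ± 0.47, adjusted p = 0.0186), Usp18 (3.40 ± 0.62, adjusted p = 0.022) and Oas2 (3.47 ± 0.64, adjusted p = 0.022) had log2 fold changes above 2.5. Ifi204, the Oas genes, Trim30a and Slfn2, Slfn5 and Slfn8 have close paralogs, and their counts are uncertain for that reason. Not called were Rsad2 (log2 fold change 1.77 ± 0.59, adjusted p = 0.102), Ifih1 (0.86 ± 0.33, adjusted p = 0.153), Stat2 (0.43 ± 0.16, adjusted p = 0.136) and 4 further members.

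GTPases induced by interferon gamma showed the same direction. Of 13 tested 9 were higher and none lower (median log2 fold change 1.64), and 3 to 12 with 1 library left out. Irgm2 was at 2.60, 3.07, 2.97 and 2.09 against 5.97, 13.3, 5.01 and 11.2 CPM (log2 fold change 1.73 ± 0.31, adjusted p = 0.0216) and Gbp2 at 1.80, 1.15, 2.04 and 3.14 against 5.50, 24.2, 3.81 and 22.3 CPM (log2 fold change 2.79 ± 0.56, adjusted p = 0.0273), and both were called in all 8 fits. None of the 13 was called without ISP 14 and ISP 18. Members of the Gbp family resemble each other closely, so single Gbp values are uncertain.

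MHC class I genes display peptides to T cells. Of 15 genes of class I and peptide loading 11 were higher and none lower (median log2 fold change 1.86), 6 to 13 with 1 library left out and 3 without ISP 14 and ISP 18. H2-K1, a classical heavy chain, was at 22.9, 20.2, 19.4 and 22.4 CPM in the control libraries and 52.2, 242, 39.1 and 194 CPM in the ISP libraries (log2 fold change 2.64 ± 0.48, adjusted p = 0.0221, and 1.11 with adjusted p = 0.00829 without ISP 14 and ISP 18). B2m, the light chain shared by all class I molecules, rose in step (90.8, 77.8, 72.9 and 71.6 against 143, 493, 113 and 384 CPM, log2 fold change 1.86 ± 0.38, adjusted p = 0.0275). In both, ISP 16 was the lowest ISP library and still above the highest control library. H2-D1 had a log2 fold change of 2.19 ± 0.48, adjusted p = 0.0305 and H2-Q4 of 2.62 ± 0.49, adjusted p = 0.0223. Class I genes are near-identical in parts, so the split of reads between them is uncertain. Psmb9, an immunoproteasome subunit, was at 1.14, 0.98, 1.15 and 0.713 against 3.70, 6.54, 1.40 and 6.20 CPM (log2 fold change 2.16 ± 0.44, adjusted p = 0.0275). The related subunit gene Psmb10 was not called and pointed the other way (58.1, 35.4, 44.2 and 42.6 against 38.9, 39.9, 35.0 and 44.7 CPM, log2 fold change -0.19 ± 0.14, adjusted p = 0.472).

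Class II genes are made by antigen-presenting cells. Of 8 tested 5 were higher and none lower (median log2 fold change 2.87), and 1, Ctss, without ISP 14 and ISP 18. Cd74, the invariant chain, was at 2.36, 1.28, 0.85 and 2.42 against 3.09, 36.2, 3.57 and 30.3 CPM (log2 fold change 3.41 ± 0.75, adjusted p = 0.0314), and H2-Ab1 at 0.277, 0.341, 0 and 0.0475 against 0.875, 14.0, 0.819 and 13.1 CPM (log2 fold change 5.35 ± 1.08, adjusted p = 0.0273). ISP 12 and ISP 16 lay within about 1 CPM of the highest control library in both genes, and ISP 14 and ISP 18 carried most of the difference. Ciita, the regulator of class II transcription, was not called (3.40, 3.28, 3.44 and 3.14 against 2.88, 2.51, 3.52 and 3.88 CPM, log2 fold change -0.05 ± 0.23, adjusted p = 0.93).

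Complement proteins tag cells and synapses for removal. Of 17 tested genes 12 were higher and none lower (median log2 fold change 1.94), and 5 (without control 38, ISP 14 or ISP 18) to 12 with 1 library left out. C4b (chr17:34728380-34743882) had a larger fold than any other gene of the list but C3 and measured 1.77, 2.26, 1.53 and 1.33 CPM in the control libraries and 53.1, 209, 20.9 and 301 CPM in the ISP libraries (log2 fold change 6.40 ± 0.79, adjusted p = 0.0162, and 4.42 with adjusted p = 4.61e-05 without ISP 14 and ISP 18). Even ISP 16, the lowest ISP library, lay far above the highest control library. Its near-identical neighbor C4a was not separated from it with certainty by read counting. C3, the central component, was close to the detection limit in the control libraries (0.0347, 0.213, 0.0425 and 0.285 against 1.03, 23.3, 0.53 and 31.8 CPM, log2 fold change 6.66 ± 1.33, adjusted p = 0.0273). C1qa, which starts the classical pathway, was at 58.0, 29.4, 39.0 and 40.2 against 74.0, 366, 65.3 and 318 CPM (log2 fold change 2.30 ± 0.50, adjusted p = 0.0299), and its partners C1qb (log2 fold change 1.97 ± 0.49, adjusted p = 0.0436, up to 0.129 without control 36 or 38 or ISP 14 or 18) and C1qc (1.94 ± 0.46, adjusted p = 0.0381, up to 0.113 without control 38 or ISP 14 or 18) had overlapping groups. C3ar1, the receptor for the C3a fragment, was at 2.15, 1.62, 1.15 and 1.19 against 4.17, 22.8, 2.84 and 16.7 CPM (log2 fold change 2.92 ± 0.59, adjusted p = 0.0273). Only C4b was called without ISP 14 and ISP 18.

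Chemokines attract leukocytes. Of 13 tested chemokine and receptor genes 9 were higher and none lower (median log2 fold change 1.89), 8 to 13 with 1 library left out and 3 without ISP 14 and ISP 18. Cxcl10, an interferon-induced T cell attractant, had 1 read in the control libraries against 807 with ISP, a ratio of 833 (95% exact counting interval 149 to 32950), and stood at 1.18, 20.6, 0.627 and 9.19 CPM in the ISP libraries. Ccl5, another T cell attractant, had 2 reads against 354, a ratio of 183 (50.2 to 1515). Ccl6, a myeloid chemokine, was at 0.866, 0.511, 0.595 and 0.76 against 2.88, 9.34, 2.94 and 10.7 CPM (log2 fold change 3.23 ± 0.48, adjusted p = 0.0186) and Ccl9 at 0.901, 0.937, 1.19 and 1.38 against 2.68, 7.74, 3.42 and 11.1 CPM (log2 fold change 2.51 ± 0.43, adjusted p = 0.0205). ISP 12 and ISP 16 exceeded every control library for all 4. The most abundant member, Cx3cl1 (fractalkine, made by neurons), was not called and pointed down (1442, 1225, 1114 and 1278 against 1037, 995, 1227 and 1004 CPM, log2 fold change -0.25 ± 0.10, adjusted p = 0.154), as did Cxcl12 (log2 fold change -0.25 ± 0.12, adjusted p = 0.245). Toll-like receptors and inflammatory cytokines gave 11 higher and none lower of 22 (median 1.12, 5 to 12 with 1 library left out), with Il33 (25.7, 41.5, 35.1 and 28.1 against 65.5, 88.8, 43.3 and 111 CPM, log2 fold change 1.25 ± 0.24, adjusted p = 0.0269), an alarmin released by glia, and Csf1, a growth factor of microglia (11.5, 15.1, 14.8 and 19.1 against 24.0, 49.6, 24.3 and 64.7 CPM, log2 fold change 1.44 ± 0.29, adjusted p = 0.0275), called in all 8 fits, and none of the 22 called without ISP 14 and ISP 18.

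**Figure D3:**
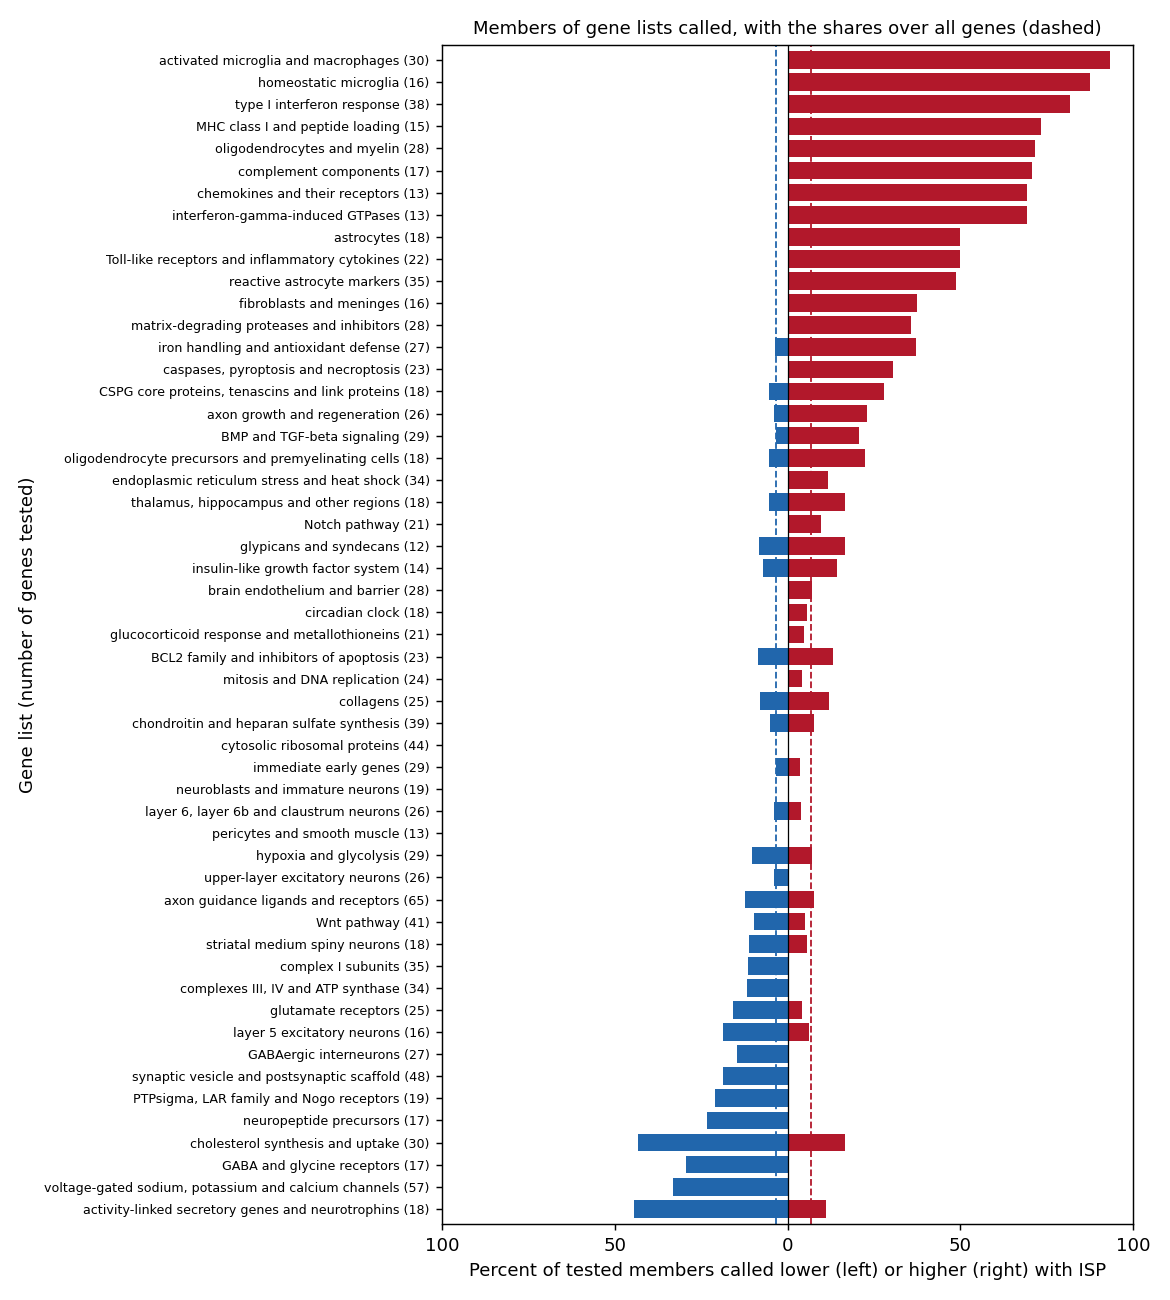
Percent of the tested members of each gene list that were called lower (left) or higher (right) with ISP, with dashed lines at the shares among all tested genes (3.42% lower and 6.74% higher). Lists with at least 12 tested members are drawn, so MHC class II and other short lists are left out. Lists of microglia, interferon, MHC class I and complement genes reach far to the right with no member on the left, while channels, receptors, neuropeptides and cholesterol synthesis reach to the left.

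Oligodendrocytes wrap axons in myelin. Of 28 tested genes 20 were higher and none lower (median log2 fold change 0.78) with 8 libraries. Without control 38 the count was 5, without ISP 16 it was 26, and without ISP 14 and ISP 18 together it was 2. A set of 5 was called in all 8 fits. Apod (apolipoprotein D), Cldn11 (a tight junction protein of myelin), Hapln2 (a link protein at nodes of Ranvier), Anln and Ermn were the 5. Apod was at 85.9, 80.1, 82.3 and 67.9 against 159, 489.9, 119 and 584 CPM (log2 fold change 2.10 ± 0.42, adjusted p = 0.0271) and Cldn11 at 79.5, 100.2, 113 and 76.6 against 199, 194, 115 and 317 CPM (log2 fold change 1.16 ± 0.24, adjusted p = 0.0275). In Cldn11, ISP 16 exceeded the highest control library by about 2 CPM only. Mbp (myelin basic protein) was at 1783, 2122, 2382 and 1603 CPM in the control libraries and 3431, 3090.2, 2254 and 5407 CPM in the ISP libraries (log2 fold change 0.85 ± 0.22, adjusted p = 0.049, up to 0.139 without control 19 or 38). ISP 16 lay inside the control range, control 21 and control 36 were above control 19 and control 38, and ISP 18 was the highest. Mobp, another myelin gene, had a log2 fold change close to that of Mbp (0.82 ± 0.22, adjusted p = 0.0552, up to 0.157 without control 19 or 38 or ISP 14 or 18).

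Control 19 and control 38 were also the lowest libraries in a pair of markers of the deepest cortical layer, next to the white matter. Ccn2, a gene of layer 6b, was at 6.41, 26.2, 43.7 and 9.69 against 68.5, 37.5, 30.5 and 68.0 CPM (log2 fold change 1.25 ± 0.49, adjusted p = 0.153), and Cplx3, another, at 6.24, 13.8, 24.2 and 6.08 against 39.4, 22.8, 14.6 and 50.9 CPM (log2 fold change 1.35 ± 0.45, adjusted p = 0.105). Of 26 tested genes of layer 6, layer 6b and claustrum 1 (Sla, log2 fold change 1.02 ± 0.27, adjusted p = 0.0555, up to 0.157 without control 19 or 38 or ISP 14 or 18) was higher and 1 (Tafa1, -0.54 ± 0.14, adjusted p = 0.0504, up to 0.143 without control 19 or 38 or ISP 14 or 18) lower, with a median of 0.34. Upper-layer genes had 0 higher and 1 lower of 26 with a median of -0.35, and their mean level over the list was lowest in control 36 and ISP 12. The called member was Unc5d, a netrin receptor (30.5, 38.7, 23.3 and 37.9 against 18.8, 17.9, 23.4 and 24.8 CPM, log2 fold change -0.62 ± 0.16, adjusted p = 0.054, up to 0.156 without control 21 or 38 or ISP 14). The part of punch depth in the myelin values was not tested. Precursor genes of the lineage gave 4 higher and 1 lower of 18 (median 0.44). Tnr (tenascin R) was lower in all ISP libraries (61.0, 73.6, 54.8 and 52.8 against 35.4, 42.4, 41.3 and 48.2 CPM, log2 fold change -0.53 ± 0.12, adjusted p = 0.0361), and Olig2, the lineage transcription factor, was higher (29.8, 26.3, 27.7 and 26.1 against 39.5, 33.7, 33.0 and 43.5 CPM, log2 fold change 0.45 ± 0.11, adjusted p = 0.0387, up to 0.116 without control 38 or ISP 18). Pdgfra, the defining receptor of precursors, was not called (log2 fold change 0.06 ± 0.12, adjusted p = 0.827).

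CSPG core proteins and their partners are the ligands of PTPσ. Of 18 tested genes 5 were higher and 1 lower (median log2 fold change 0.22). Cd44, Hapln2 and Tnr, given above, were the members called in all 8 fits. Ncan (neurocan), a core protein secreted by reactive astrocytes and neurons, was at 253, 274, 269 and 268 against 313, 316, 305 and 293 CPM (log2 fold change 0.21 ± 0.06, adjusted p = 0.0904, up to 0.227 without control 19, 36 or 38 or ISP 12, 14, 16 or 18). Its groups did not overlap but lay close together. The large CSPGs Acan (aggrecan of perineuronal nets, log2 fold change 0.03, adjusted p = 0.95), Bcan (brevican, 0.09 ± 0.08, adjusted p = 0.553), Vcan (versican, 0.43 ± 0.23, adjusted p = 0.299), Cspg4 (NG2, 0.11 ± 0.13, adjusted p = 0.693) and Cspg5 (neuroglycan C, 0.08 ± 0.07, adjusted p = 0.532) were not called. Enzymes that build chondroitin and heparan sulfate gave 3 higher and 2 lower of 39 (median -0.12), which is near the shares over all tested genes (6.74% higher and 3.42% lower). Chst11, which adds the 4-O-sulfate of chondroitin, was the member called in all 8 fits (48.2, 41.8, 43.9 and 43.3 against 67.2, 68.1, 51.9 and 58.1 CPM, log2 fold change 0.47 ± 0.10, adjusted p = 0.0293). Glypicans and syndecans, the heparan sulfate carriers that also bind PTPσ, gave 2 higher and 1 lower of 12. Sdc4 (syndecan 4) was at 33.5, 37.1, 33.7 and 34.7 against 47.7, 84.7, 54.8 and 88.9 CPM (log2 fold change 0.99 ± 0.18, adjusted p = 0.0205), and Agrn (agrin) was lower (154, 159, 148 and 163 against 125, 131, 135 and 129.6 CPM, log2 fold change -0.26 ± 0.07, adjusted p = 0.0516, up to 0.154 without control 38 or ISP 14 or 18).

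Ptprs itself, the target of the peptide, was at 422, 457, 453 and 481 CPM in the control libraries and 399.6, 393, 383 and 413 CPM in the ISP libraries (log2 fold change -0.19 ± 0.07, adjusted p = 0.126). Every ISP library was below every control library, but the difference was not called. It was of about the same size without ISP 14 and ISP 18 (log2 fold change -0.20, adjusted p = 0.443). Of 19 genes of PTPσ, its LAR relatives, their partners and the Nogo receptors 0 were higher and 4 lower (median -0.20). Lingo1, a co-receptor that limits axon growth and myelination, was at 618, 494, 492 and 582 against 424, 369, 466 and 360.5 CPM (log2 fold change -0.43 ± 0.10, adjusted p = 0.0403, up to 0.128 without control 38 or ISP 14 or 18). Rtn4rl2 (a Nogo receptor, log2 fold change -0.48 ± 0.14, adjusted p = 0.0661, up to 0.182 without control 19, 36 or 38 or ISP 14 or 18), Slitrk1 (-0.35 ± 0.10, adjusted p = 0.0643, up to 0.18 without control 21, 36 or 38 or ISP 14 or 18) and Slitrk3 (-0.30 ± 0.10, adjusted p = 0.0929, up to 0.228 without control 19, 21, 36 or 38 or ISP 12, 14 or 18), postsynaptic partners of LAR phosphatases, were the others. None of the 4 was called in all 8 fits or without ISP 14 and ISP 18, and the lower calls ran from 0 (without control 38, ISP 14 or ISP 18) to 6. The sister phosphatases Ptprd (log2 fold change -0.26 ± 0.11, adjusted p = 0.179) and Ptprf (log2 fold change -0.21 ± 0.11, adjusted p = 0.284) and the Nogo receptor gene Rtn4r (log2 fold change -0.36 ± 0.13, adjusted p = 0.138) were not called.

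Matrix-degrading proteases and their inhibitors gave 10 higher and none lower of 28 (median 0.30), with 0 (without control 38 or ISP 14) to 12 called with 1 library left out and none without ISP 14 and ISP 18. With the correction for GC content and length 7 were higher and none lower. Timp3, an inhibitor of metalloproteases, had the smallest p (55.8, 60.8, 58.4 and 55.6 against 65.6, 82.0, 71.7 and 89.9 CPM, log2 fold change 0.42 ± 0.10, adjusted p = 0.0383, up to 0.118 without control 38 or ISP 14 or 18). Collagens gave 3 higher and 2 lower of 25 (median 0.58), beside 6.74% higher and 3.42% lower over all tested genes. Neuronal Col19a1 (32.3, 34.2, 27.7 and 29.98 against 19.1, 20.5, 18.6 and 19.3 CPM, log2 fold change -0.68 ± 0.10, adjusted p = 0.0186, and -0.71 without ISP 14 and ISP 18) and Col25a1 (36.3, 37.1, 33.6 and 39.2 against 23.4, 28.4, 24.3 and 16.6 CPM, log2 fold change -0.66 ± 0.14, adjusted p = 0.029) were lower without overlap. Col11a2 was higher (15.6, 16.9, 17.3 and 16.7 against 27.9, 31.8, 20.9 and 38.1 CPM, log2 fold change 0.84 ± 0.16, adjusted p = 0.0223). The scar collagens Col1a1 (log2 fold change 1.06 ± 0.45, adjusted p = 0.185) and Col1a2 (log2 fold change 0.68 ± 0.28, adjusted p = 0.176) were not called, and Col3a1 was called with ISP 16 below every control library (0.832, 1.28, 0.68 and 0.713 against 1.49, 6.46, 0.53 and 8.00 CPM, log2 fold change 2.24 ± 0.67, adjusted p = 0.0783, up to 0.218 without control 19, 21, 36 or 38 or ISP 14 or 18). Fibroblast and meningeal genes gave 6 higher and none lower of 16 (median 0.98, 3 to 9 with 1 library left out), led by Ptgds, Slc13a3 (a dicarboxylate carrier, log2 fold change 1.09 ± 0.20, adjusted p = 0.022) and Islr (log2 fold change 1.17 ± 0.24, adjusted p = 0.0275).

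Voltage-gated channels gave the most lower genes among the neuronal lists, and their list was a long one. A larger share was lower among the activity-linked secretory and neurotrophin genes described below (8 of 18). Of 57 tested genes for sodium, potassium and calcium channels 19 were lower and none higher, with a median log2 fold change of -0.26. The number lower ran from 7 to 28 with 1 library left out, it was 2 without ISP 14 and ISP 18, and 7 genes were called in all 8 fits. With the correction for GC content and length 13 were lower and none higher, with a median of -0.19. Cacna1a, the pore of the P/Q-type calcium channel that drives transmitter release (chr8:84388440-84640246), was at 245, 247, 229.6 and 236 CPM in the control libraries and 157, 153, 188 and 168 CPM in the ISP libraries (log2 fold change -0.52 ± 0.08, adjusted p = 0.0186, and -0.47 without ISP 14 and ISP 18). Every ISP library was below every control library, and the spread within each group was small. Kcnb2, a delayed rectifier, was at 31.0, 29.0, 28.0 and 32.3 against 16.3, 16.9, 21.4 and 13.4 CPM (log2 fold change -0.82 ± 0.13, adjusted p = 0.0186). Kcnh5 (17.2, 27.1, 14.6 and 20.9 against 7.20, 8.35, 11.3 and 7.73 CPM, log2 fold change -1.21 ± 0.20, adjusted p = 0.0199) and Kcnh7 (24.2, 34.5, 16.7 and 25.4 against 8.85, 9.96, 13.4 and 12.2 CPM, log2 fold change -1.18 ± 0.20, adjusted p = 0.0205), potassium channels of the ether-a-go-go class, had the largest changes of the 7. ISP 16 was the ISP library nearest to control in Cacna1a, Kcnb2, Kcnh5 and Kcnh7. Kcns2 (log2 fold change -0.59 ± 0.11, adjusted p = 0.0223), Kcnv1 (log2 fold change -0.60 ± 0.11, adjusted p = 0.0245) and the gabapentin-binding subunit gene Cacna2d1 (log2 fold change -0.43 ± 0.09, adjusted p = 0.0275) were the other members of the 7. Scn1a, the sodium channel of fast-spiking interneurons and axons, was lower (176, 221, 179.5 and 159.6 against 123, 127, 153 and 139 CPM, log2 fold change -0.44 ± 0.11, adjusted p = 0.0403, up to 0.123 without ISP 14).

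**Figure D4:**
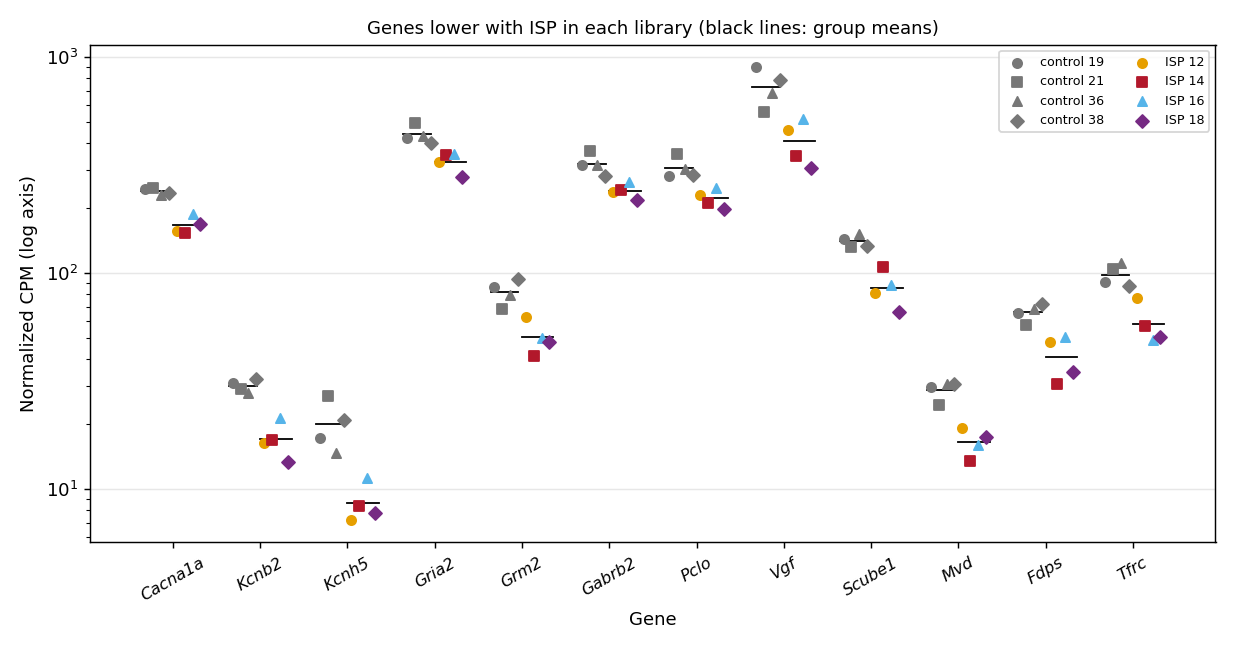
Normalized level (CPM, log axis) of 12 genes lower with ISP, covering channels, receptors, the active zone, secreted proteins, cholesterol synthesis and iron uptake, in each of the 4 control and 4 ISP libraries, with black lines at the group means. All 4 ISP points lie below all 4 control points for each gene, by log2 fold changes of -0.41 (Gabrb2) to -1.21 (Kcnh5).

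Of 25 tested glutamate receptor genes 4 were lower and 1 higher (median -0.20), with 2 to 9 lower when 1 library was left out. Grm2, a presynaptic metabotropic receptor, was at 86.3, 68.2, 79.1 and 94.0 against 62.5, 41.1, 50.3 and 48.1 CPM (log2 fold change -0.70 ± 0.13, adjusted p = 0.0231), and Gria2, the AMPA receptor subunit that blocks calcium entry, at 423, 497, 434 and 403 against 326, 352, 356 and 279 CPM (log2 fold change -0.42 ± 0.09, adjusted p = 0.0342). Both were called in all 8 fits without overlap. Grin2c, an NMDA receptor subunit found in astrocytes among other cells, was the higher member (56.3, 48.2, 54.0 and 57.0 against 68.0, 76.0, 69.3 and 65.6 CPM, log2 fold change 0.37 ± 0.09, adjusted p = 0.0351, up to 0.116 without ISP 14). The obligatory NMDA subunit gene Grin1 was not called (log2 fold change -0.21 ± 0.07, adjusted p = 0.106). Among 17 GABA and glycine receptor genes 5 were lower and none higher (median -0.25), with 1 to 6 lower when 1 library was left out. Gabrb2 was at 317, 367, 316 and 283 against 238, 244, 263 and 219 CPM (log2 fold change -0.41 ± 0.09, adjusted p = 0.0309), Gabrd at 122, 96.2, 88.9 and 114 against 77.9, 74.1, 83.8 and 88.4 CPM (log2 fold change -0.38 ± 0.11, adjusted p = 0.0652, up to 0.18 without control 19 or 38 or ISP 12 or 14). Groups did not overlap, with ISP lower, for 8 of the 17, beside 4.97% of all tested genes.

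Synaptic vesicle and scaffold genes gave 9 lower and none higher of 48 (median -0.19), and 47 of the 48 had a negative log2 fold change. The lower calls ran from 2 (without control 38, ISP 14 or ISP 18) to 20 (without ISP 16). With the correction for GC content and length there were 6, with none higher. Pclo (piccolo, of the presynaptic active zone) was at 281, 355, 304 and 286 against 231, 210.4, 248 and 199 CPM (log2 fold change -0.46 ± 0.10, adjusted p = 0.0275) and Dlgap2, a postsynaptic scaffold, at 58.4, 72.6, 65.6 and 61.7 against 41.2, 44.7, 52.4 and 40.7 CPM (log2 fold change -0.53 ± 0.10, adjusted p = 0.0269). Those 2 were the members called in all 8 fits. No gene of this list and none of the GABA, glycine and glutamate receptors was called without ISP 14 and ISP 18.

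Of 18 activity-linked secretory and neurotrophin genes 8 were lower and 2 higher (median -0.27), with 2 (without ISP 14) to 9 lower when 1 library was left out and none called without ISP 14 and ISP 18. Vgf, a granin-like peptide precursor, was at 899.7, 556, 683 and 787 CPM in the control libraries and 459.7, 348, 517 and 308 CPM in the ISP libraries (log2 fold change -0.84 ± 0.17, adjusted p = 0.0275). All ISP libraries were below the lowest control library, ISP 18 by the most. Pcsk1, the protease that cuts such precursors, was lower (60.8, 51.2, 49.4 and 45.0 against 36.5, 36.4, 38.5 and 25.8 CPM, log2 fold change -0.59 ± 0.13, adjusted p = 0.0333), whereas Scg3 (secretogranin III) was higher in every ISP library (253, 275, 282 and 254 against 349, 353, 332 and 382 CPM, log2 fold change 0.41 ± 0.07, adjusted p = 0.0205). Bdnf, the main cortical neurotrophin, was lower with ISP 16 inside the control range (33.2, 32.8, 22.0 and 32.7 against 19.4, 14.3, 24.0 and 9.67 CPM, log2 fold change -0.85 ± 0.24, adjusted p = 0.0605, up to 0.165 without control 19, 21 or 38 or ISP 14 or 18). Neuropeptide precursors gave 4 lower and none higher of 17 (median -0.38), namely Crh (log2 fold change -0.81 ± 0.23, adjusted p = 0.0652, up to 0.163 without control 19, 36 or 38 or ISP 12, 14 or 18), Cck (log2 fold change -0.60 ± 0.18, adjusted p = 0.0785, up to 0.189 without control 19, 36 or 38 or ISP 14 or 18), Sst (log2 fold change -0.38 ± 0.12, adjusted p = 0.0848, up to 0.216 without control 19, 36 or 38 or ISP 14, 16 or 18) and Penk. For all 4 the groups overlapped, and the lower calls ran from 0 to 6 with 1 library left out. Immediate early genes gave 1 higher (Jun, 33.2, 46.9, 42.9 and 52.4 against 63.7, 82.7, 57.3 and 81.7 CPM, log2 fold change 0.71 ± 0.15, adjusted p = 0.0296) and 1 lower (Egr4, log2 fold change -0.74 ± 0.23, adjusted p = 0.0865, up to 0.225 without control 19, 21, 36 or 38 or ISP 14 or 18) of 29, and Fos (log2 fold change -0.50 ± 0.30, adjusted p = 0.351) and Arc (log2 fold change -0.62 ± 0.34, adjusted p = 0.314) were not called.

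Interneuron genes gave 4 lower and none higher of 27 (median -0.16), of which Reln (reelin, 38.5, 36.0, 32.6 and 40.9 against 29.8, 29.0, 27.7 and 26.04 CPM, log2 fold change -0.39 ± 0.10, adjusted p = 0.0403, up to 0.123 without control 38 or ISP 14 or 18) had the smallest p, and the transmitter enzyme gene Gad1 was not called (log2 fold change 0.06 ± 0.08, adjusted p = 0.739). Crh, Cck and Sst, given above among the neuropeptide precursors, were the other lower interneuron genes. Layer 5 genes gave 1 higher and 3 lower of 16. The higher one, S100b, is also an astrocyte gene (129.97, 104, 116 and 117 against 141, 168, 143 and 167 CPM, log2 fold change 0.40 ± 0.09, adjusted p = 0.0344, up to 0.11 without ISP 14), and Rbp4 (log2 fold change -0.71 ± 0.17, adjusted p = 0.0383, up to 0.116 without ISP 14 or 18), Npr3 (log2 fold change -0.54 ± 0.16, adjusted p = 0.0707, up to 0.188 without control 19, 21, 36 or 38 or ISP 14 or 18) and Pcp4 (log2 fold change -0.38 ± 0.12, adjusted p = 0.0991, up to 0.242 without control 19, 36 or 38 or ISP 14, 16 or 18) were the lower ones. Striatal neuron genes gave 1 higher and 2 lower of 18 (median 0.01), and genes of thalamus, hippocampus and other regions gave 3 higher and 1 lower of 18. Neuroblast genes, which mark newborn neurons, gave 0 of 19, and Dcx (doublecortin) was not called (log2 fold change -0.30 ± 0.17, adjusted p = 0.346). Genes of mitosis and DNA replication gave 1 higher of 24, Mcm3 (log2 fold change 1.35 ± 0.43, adjusted p = 0.0931, up to 0.259 without control 19, 21, 36 or 38 or ISP 14 or 18), and the proliferation marker Mki67 exceeded 2 CPM only in ISP 18 (0.277, 0.767, 0.722 and 1.57 against 0.36, 1.77, 0.434 and 4.60 CPM, log2 fold change 1.14 ± 0.75, adjusted p = 0.408).

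Among the single genes with the smallest p that were lower with ISP, Gpr26, an orphan receptor of neurons, was at 41.3, 49.0, 49.5 and 41.4 CPM in the control libraries and 25.1, 29.1, 28.0 and 23.5 CPM in the ISP libraries (log2 fold change -0.78 ± 0.10, adjusted p = 0.0186, and -0.76 without ISP 14 and ISP 18). Scube1, a secreted protein with EGF-like repeats, was at 144, 132, 152 and 134 against 81.1, 106, 88.2 and 66.1 CPM (log2 fold change -0.72 ± 0.12, adjusted p = 0.0205, and -0.72 with adjusted p = 0.0162 without ISP 14 and ISP 18). Neither gene overlapped between the groups, and ISP 18 was the lowest library in both. Fstl4, a follistatin-like protein, was at 25.2, 24.1, 24.0 and 24.4 against 14.7, 15.3, 16.6 and 12.6 CPM (log2 fold change -0.72 ± 0.11, adjusted p = 0.0186), and Lrrc7 (densin 180, a postsynaptic scaffold) at 186, 206, 159 and 154 against 107, 115, 123 and 110.2 CPM (log2 fold change -0.63 ± 0.10, adjusted p = 0.0186). Sorbs2, an actin adaptor, had a log2 fold change of -0.47 ± 0.07, adjusted p = 0.0186, Cnksr2, a synaptic scaffold, of -0.50 ± 0.09, adjusted p = 0.0205, Gucy1a2, a subunit of the nitric oxide receptor, of -0.78 ± 0.14, adjusted p = 0.0205 and Arfgef3 of -1.19 ± 0.19, adjusted p = 0.0186. Htr2a, the serotonin 2A receptor of cortical pyramidal cells, was at 15.3, 18.7, 18.9 and 12.2 against 7.56, 11.0, 8.39 and 5.45 CPM (log2 fold change -1.01 ± 0.21, adjusted p = 0.0277), and without ISP 14 and ISP 18 its log2 fold change was -1.02 (adjusted p = 0.0649). Htr2a was chosen for mention after its values were seen.

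Of 30 tested cholesterol genes 13 were lower and 5 higher (median log2 fold change -0.45). The lower calls ran from 3 (without control 36, control 38, ISP 14 or ISP 18) to 18 (without ISP 12). The lower genes included the synthesis enzymes Mvd, Mvk, Fdps, Fdft1, Sqle, Hsd17b7, Acat2 and Hmgcs1, the regulator Insig1 and the carrier Stard4, and the higher ones, Abca1, Npc1, Npc2, Apoe and Abcg1, serve export and lysosomal transport. Of these, Mvd, Fdps, Abca1 and Npc1 were called in all 8 fits, and each of the others lost its call in at least 1 fit. Mvd, an enzyme of the mevalonate pathway (chr8:122433601-122443422), was at 29.6, 24.4, 30.6 and 30.6 CPM in the control libraries and 19.2, 13.5, 16.0 and 17.5 CPM in the ISP libraries (log2 fold change -0.80 ± 0.13, adjusted p = 0.0186, and -0.71 without ISP 14 and ISP 18). Fdps, a later enzyme, was at 65.3, 57.7, 68.2 and 72.0 against 48.1, 30.7, 50.4 and 34.7 CPM (log2 fold change -0.69 ± 0.15, adjusted p = 0.0305). In both genes all ISP libraries were lower, and in Fdps ISP 14 and ISP 18 were the lowest. Abca1, which loads cholesterol onto apolipoproteins, was at 16.8, 21.7, 14.4 and 19.0 against 29.4, 119, 30.2 and 95.2 CPM (log2 fold change 1.94 ± 0.40, adjusted p = 0.0275), and Npc1, which moves cholesterol out of lysosomes, at 52.7, 56.7, 52.2 and 54.0 against 68.4, 81.8, 66.0 and 97.7 CPM (log2 fold change 0.54 ± 0.12, adjusted p = 0.0298). ISP 14 and ISP 18 carried most of the rise of Abca1. With the same correction for GC content and length the list gave 17 lower and 4 higher, and without ISP 14 and ISP 18 it gave 1 of each, Mvd and Abca1.

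Of the 30 tested members of this list 20 had a window, as did 6 of the 13 members called lower, and the others were not searched. The core of the sterol regulatory element, TCACNCCAC or GTGGNGTGA on the other strand, was found in 1 of these 20 members, against 166 of 12004 tested genes with a window (1.38%). The member with the match was Hmgcs1, an early enzyme of the pathway (log2 fold change -0.67 ± 0.17, adjusted p = 0.0448, up to 0.123 without control 36 or 38 or ISP 14 or 18). Its stretch at chr13:119690174-119690262 (plus strand, GRCm38.p6, match in capitals) is printed as the one match among the members searched.
Hmgcs1 promoter: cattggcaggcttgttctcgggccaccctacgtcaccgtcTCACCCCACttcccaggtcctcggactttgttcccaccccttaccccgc

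Iron and antioxidant genes gave 10 higher and 1 lower of 27 (median 0.34), with 3 (without ISP 14) to 14 higher when 1 library was left out and 1 without ISP 14 and ISP 18. The lower gene was Tfrc, the transferrin receptor that takes up iron (90.6, 105, 111 and 87.2 against 76.8, 56.7, 49.2 and 50.6 CPM, log2 fold change -0.76 ± 0.14, adjusted p = 0.022). Prdx6, a peroxidase of astrocytes, was higher (195, 150.4, 149 and 168 against 233, 426, 211 and 438 CPM, log2 fold change 0.98 ± 0.22, adjusted p = 0.0314). Hmox1 (heme oxygenase 1, log2 fold change 1.45 ± 0.32, adjusted p = 0.0333, up to 0.104 without ISP 14) was higher too, and the ferritin genes Fth1 (log2 fold change 0.26 ± 0.12, adjusted p = 0.224) and Ftl1 (log2 fold change 0.52 ± 0.21, adjusted p = 0.16) were not called.

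Caspase, pyroptosis and necroptosis genes gave 7 higher and none lower of 23 (median 0.66), 2 to 10 with 1 library left out and 0 without ISP 14 and ISP 18. Tnfrsf1a, the tumor necrosis factor receptor, was at 8.87, 7.84, 6.63 and 7.41 against 12.7, 26.9, 10.5 and 30.4 CPM (log2 fold change 1.39 ± 0.30, adjusted p = 0.0298), and Cflar (FLIP), which holds back caspase 8, at 11.3, 9.80, 10.7 and 9.98 against 12.5, 21.4, 18.1 and 26.01 CPM (log2 fold change 0.90 ± 0.19, adjusted p = 0.0286). BCL2 family and inhibitor genes gave 3 higher and 2 lower of 23, none of them called in all 8 fits. They were Bmf (log2 fold change 1.26 ± 0.31, adjusted p = 0.042, up to 0.136 without control 19 or ISP 14 or 18), Hrk (log2 fold change 0.78 ± 0.23, adjusted p = 0.0707, up to 0.16 without control 19, 21, 36 or 38 or ISP 12 or 14) and Bcl2a1b (log2 fold change 2.71 ± 0.78, adjusted p = 0.0676, up to 0.192 without control 19, 21, 36 or 38 or ISP 14 or 18), whose paralogs make its count uncertain, and, lower, Birc6 (log2 fold change -0.35 ± 0.10, adjusted p = 0.0682, up to 0.171 without control 38 or ISP 12, 14 or 18) and Bok (log2 fold change -0.45 ± 0.13, adjusted p = 0.0753, up to 0.193 without control 19, 36 or 38 or ISP 14 or 18). Bcl2 itself was not called (22.6, 26.2, 20.4 and 21.0 against 25.2, 27.0, 28.2 and 20.6 CPM, log2 fold change 0.16 ± 0.12, adjusted p = 0.485). Stress genes of the endoplasmic reticulum gave 4 higher and none lower of 34, with Atf3, a stress transcription factor, at 0.243, 0.0426, 0.34 and 0.523 against 1.23, 5.88, 0.723 and 6.54 CPM (log2 fold change 3.66 ± 0.77, adjusted p = 0.0286).

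Axon growth and regeneration genes gave 6 higher and 1 lower of 26 (median -0.07), and 4 higher ones, Stat3, Atf3, Jun and Cebpd (log2 fold change 1.83 ± 0.40, adjusted p = 0.0305), were called in all 8 fits. The growth cone gene Gap43 was not called (log2 fold change -0.13 ± 0.13, adjusted p = 0.607). Rock2, a kinase downstream of growth inhibitors, was lower (283, 306, 263 and 259.5 against 221, 207, 241 and 167 CPM, log2 fold change -0.41 ± 0.11, adjusted p = 0.0497, up to 0.134 without control 38 or ISP 14). Guidance ligands and receptors gave 5 higher and 8 lower of 65 (median -0.12). Slit2, a repellent, was at 29.1, 38.1, 35.9 and 33.4 against 24.4, 20.8, 21.5 and 14.9 CPM (log2 fold change -0.75 ± 0.14, adjusted p = 0.0254). Plxnb1, a semaphorin receptor, was higher (61.5, 66.0, 66.6 and 66.0 against 81.4, 107, 85.3 and 111 CPM, log2 fold change 0.57 ± 0.11, adjusted p = 0.0223), and so was Efna1, an ephrin (2.11, 2.30, 2.29 and 1.90 against 5.14, 4.61, 4.43 and 7.49 CPM, log2 fold change 1.33 ± 0.24, adjusted p = 0.022). These 3 did not overlap between the groups and were called in all 8 fits.

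BMP and TGF-beta genes gave 6 higher and 1 lower of 29, with 1 to 10 higher when 1 library was left out, led by Id4, an inhibitor of differentiation (31.3, 30.7, 23.5 and 31.8 against 45.0, 59.0, 47.1 and 71.9 CPM, log2 fold change 0.93 ± 0.15, adjusted p = 0.0186), with Nog (noggin) lower (log2 fold change -0.55 ± 0.14, adjusted p = 0.047, up to 0.135 without control 19 or 36 or ISP 14). Notch genes gave 2 higher of 21, with Lfng given above. Wnt genes gave 2 higher and 4 lower of 41, and insulin-like growth factor genes 2 higher and 1 lower of 14, with Igfbp6 lower (99.7, 57.6, 72.4 and 84.0 against 54.2, 49.7, 50.7 and 45.8 CPM, log2 fold change -0.65 ± 0.14, adjusted p = 0.0306). Igf2 was 78.0 CPM in ISP 18, the library with choroid plexus RNA, against 13.5 to 21.1 CPM elsewhere, and was not called (log2 fold change 1.11 ± 0.45, adjusted p = 0.17). Endothelial genes gave 2 higher of 28 (median 0.02), the adhesion molecules Vcam1 (log2 fold change 0.90 ± 0.22, adjusted p = 0.0396, up to 0.122 without control 38 or ISP 14 or 18) and Icam1 (log2 fold change 1.78 ± 0.55, adjusted p = 0.0843, up to 0.237 without control 19, 21, 36 or 38 or ISP 14 or 18), and the barrier gene Cldn5 was not called (log2 fold change -0.03 ± 0.12, adjusted p = 0.905). Pericyte and smooth muscle genes gave 0 of 13. Hypoxia and glycolysis genes gave 2 higher and 3 lower of 29, beside 6.74% higher and 3.42% lower over all tested genes. Vegfa, the vascular growth factor, was lower without overlap (64.4, 78.2, 78.4 and 70.8 against 52.6, 48.4, 54.4 and 46.1 CPM, log2 fold change -0.53 ± 0.09, adjusted p = 0.0205), and Ndrg1, a stress gene also found in oligodendrocytes, was higher (63.1, 79.7, 84.5 and 60.6 against 129.7, 115, 102 and 183 CPM, log2 fold change 0.88 ± 0.17, adjusted p = 0.0254).

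Cytosolic ribosomal protein genes gave 0 of 44 (median -0.01). Complex I genes gave 4 lower and none higher of 35 (median -0.23), and genes of complexes III and IV and ATP synthase 4 lower and none higher of 34 (median -0.25). Control 19 had the highest and control 21 the lowest summed level of both among the control libraries, and without control 21 the lower calls were 13 and 17. With the correction for GC content and length they were 9 in each list. Ndufc1, called in all 8 fits, was at 47.0, 31.6, 36.5 and 36.2 against 26.9, 26.5, 22.9 and 22.6 CPM (log2 fold change -0.61 ± 0.12, adjusted p = 0.0275). Glucocorticoid genes gave 1 higher of 21 and clock genes 1 higher of 18, Bhlhe41 (27.0, 34.3, 30.8 and 34.5 against 45.1, 58.0, 45.3 and 73.7 CPM, log2 fold change 0.81 ± 0.15, adjusted p = 0.0232).

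**Figure D5:**
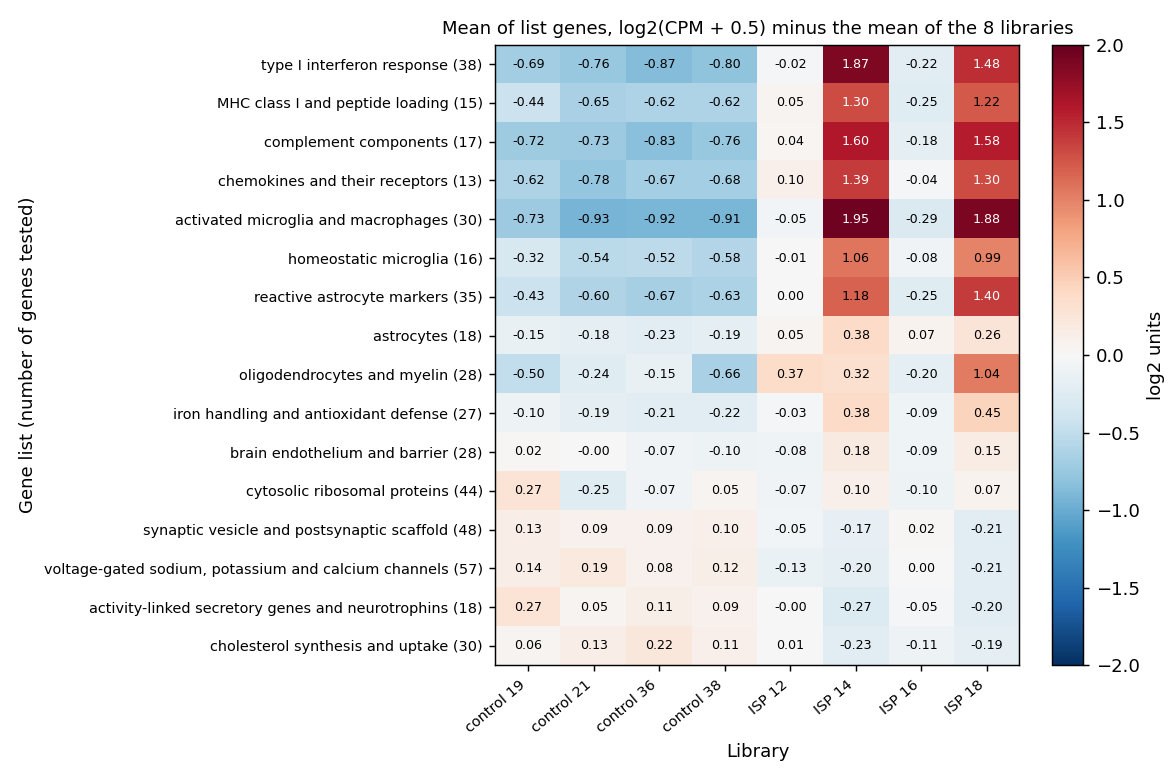
Heat map of 16 gene lists (rows) in the 8 libraries (columns), colored by the mean of log2(CPM + 0.5) over the tested members minus the mean of the 8 libraries. ISP 14 and ISP 18 are the highest libraries for the microglia, interferon, MHC and complement lists, with ISP 12 and ISP 16 between them and the control libraries, while the oligodendrocyte list is lowest in control 19 and control 38.

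The genes that were also assayed by quantitative PCR are given whether called or not. That assay compared vehicle with ISP in an independent cohort of mice, so the values here are no check of it. Lower and called were Igfn1 (30.6, 15.6, 9.73 and 22.8 against 9.21, 7.74, 10.7 and 10.3 CPM, log2 fold change -1.05 ± 0.28, adjusted p = 0.0543, up to 0.153 without control 19 or 38 or ISP 14 or 18), Rasgef1c (36.1, 26.6, 29.0 and 35.2 against 27.6, 19.5, 19.3 and 18.8 CPM, log2 fold change -0.58 ± 0.15, adjusted p = 0.0463, up to 0.139 without control 19 or 38 or ISP 14 or 18), Dact2, a Wnt inhibitor (86.9, 68.4, 69.4 and 85.8 against 62.8, 44.4, 59.4 and 58.5 CPM, log2 fold change -0.46 ± 0.12, adjusted p = 0.0521, up to 0.142 without control 19 or 38 or ISP 14 or 18), Grm2 and the enkephalin precursor Penk (32.2, 16.96, 21.0 and 21.3 against 18.0, 16.5, 11.8 and 14.6 CPM, log2 fold change -0.59 ± 0.19, adjusted p = 0.0959, up to 0.211 without control 19, 36 or 38 or ISP 14, 16 or 18). Sema4d, a semaphorin of oligodendrocytes, was higher (37.1, 47.4, 51.9 and 43.9 against 63.1, 77.4, 52.5 and 93.7 CPM, log2 fold change 0.67 ± 0.16, adjusted p = 0.0403, up to 0.117 without control 19 or 38 or ISP 14 or 18). Of these 6, Grm2 alone was called in all 8 fits. Cited4 (log2 fold change -0.45 ± 0.22, adjusted p = 0.243), Sag (log2 fold change 0.01 ± 0.39, adjusted p = 0.988), Tpbg (log2 fold change 0.57 ± 0.25, adjusted p = 0.207), Nr4a2 (NURR1, a transcription factor of layer 6 neurons, log2 fold change 0.45 ± 0.29, adjusted p = 0.398) and Bcl2 were not called, and the groups overlapped for all 5.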

How the data were processed

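Poly(A) RNA of frozen peri-infarct cortex was sequenced. The authors aligned reads with HISAT2 to mm10 with a GENCODE annotation and counted them per gene with HTSeq, and they used DESeq2 for their own tests. No source used here gives tool versions. Raw counts for 25238 genes were deposited without normalization. The 8 columns matched the labels by name, and the Veh columns were not used here. The methods give 4 mice for the ISP group. Nothing used here says that the control libraries came from separate mice, so p-values measure the spread between these libraries.

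Counts were tested with edgeR 4.0.16 in R 4.3.3 (filterByExpr, TMM scaling, quasi-likelihood test, group as the sole term, Benjamini-Hochberg adjusted p under 0.1). The authors used the same limit on adjusted p together with a log2 fold change above 0.5. Normalized CPM use the same scaling. The alternatives were DESeq2 size factors, no filter, at least 10 counts in every library, the DESeq2 1.42.0 Wald test, limma 3.58.1 voom with quality weights, an adjusted p of 0.05, a per-library correction for GC content and length of the genes (known for 98.1% of tested genes), each library left out and ISP 14 and ISP 18 both left out. On simulated data of 15232 genes for this comparison, edgeR called 41.8%, 73.1% and 93.9% of genes changed by 0.5, 1 and 2 on the log2 scale. It also made 23 false calls of unchanged genes. The simulation drew the libraries of a group alike, whereas ISP 14 and ISP 18 stood apart in the data, so these shares may not hold here.

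Named are the 15 genes with the smallest p in each direction (predicted genes left out), up to 4 members of each gene list with the smallest p, further members of lists described in depth, Ptprs and the 11 genes of the study's quantitative PCR. The members and gene lists were chosen with earlier results of these data known. Gene positions are GENCODE M21 on GRCm38, and promoters are RefSeq windows on GRCm38.p6. Strand use of the counting beyond HTSeq's default is not given, so overlapping and antisense genes are uncertain. Some genes of the lists are not reported here.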

Additional observations from a re-analysis of the deposited data

Results flagged for a closer look

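In 22 of 464 groups of 4 libraries, 1 library lay far from the other 3 of its group (its gap, as a share of the group's range, passed Dixon's 95% critical value), and chance alone gives about 1 in 20 groups. In the ISP group, ISP 18 was high for Igf2 (78.0 CPM) and Tpbg (33.4 CPM) and low for Pcsk1 (25.8 CPM). ISP 14 was high for Glul (2298 CPM) and for Ptprg (49.7 CPM) and low for Sag (0.864 CPM), ISP 16 was high for Arfgef3 (25.6 CPM), and ISP 12 was high for Rasgef1c (27.6 CPM) and low for Ptprd (139.8 CPM). In the control group, control 36 was low for Bdnf (22.0 CPM) and Id4 (23.5 CPM) and high for Acat2 (53.5 CPM), Stat2 (31.7 CPM) and Ccl5 (0.085 CPM). Control 21 was high for Birc6 (118 CPM) and Ptprd (222 CPM) and low for Mvd (24.4 CPM). Control 19 was low for Insig1 (61.3 CPM) and Plxnb1 (61.5 CPM) and high for Slfn2 (3.67 CPM) and Cxcl10 (0.0347 CPM), and control 38 was low for Rsad2 (0.808 CPM). The Ccl5 and Cxcl10 values stand for 2 reads and 1 read, with 0 in the other control libraries.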

How the results depend on the processing

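With 1 library left out at a time, 420 to 2283 genes were called, 299 to 1465 of them higher and 121 to 818 lower. Beyond a log2 fold change of 0.5 these fits gave 264 to 1177 higher and 77 to 285 lower genes. Without ISP 14 and ISP 18 together, 90 genes were called, 71 higher and 19 lower, with 61 and 17 beyond 0.5, and fewer libraries were tested there. An adjusted p under 0.05 left 691 genes, 517 higher and 174 lower, with 452 and 87 beyond 0.5. The number of lower genes was 857 with the DESeq2 Wald test and 817 after the correction for GC content and length, and the cause was not tested. The other counts stayed within 1.5 times their value under DESeq2 size factors, either filter on low counts, the DESeq2 test, limma-voom and the correction. Of 187 genes named here and called, 136 were called in every fit that kept all 8 libraries, 125 in every fit that left out 1 library, and 57 without ISP 14 and ISP 18. No gene named and called changed its sign in any fit. No paired analysis was possible because the control and ISP libraries share no replicate number. The 4 libraries of each group limit the precision, and genes seen nearly in ISP 14 and ISP 18 alone, such as Itgax, failed the filter.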

Other observations

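Some genes outside the gene lists were called with and without ISP 14 and ISP 18, and they are given here after their values were seen. Sparcl1 (hevin, a synapse-organizing protein of astrocytes) was at 1356, 1619, 1436 and 1460.2 against 1947, 1823, 1944 and 1829 CPM (log2 fold change 0.36 ± 0.07, adjusted p = 0.0275, and 0.41 with adjusted p = 0.0683 without ISP 14 and ISP 18). Its groups did not overlap, and the same held for Clu (clusterin, a secreted chaperone, 715, 609.8, 631 and 681 against 1007, 1327, 945 and 1596 CPM, log2 fold change 0.89 ± 0.14, adjusted p = 0.0186, and 0.57 with adjusted p = 0.0217). Grn (progranulin, a lysosomal and secreted protein) was at 50.3, 48.5, 55.1 and 56.02 against 76.2, 189, 76.4 and 215 CPM (log2 fold change 1.41 ± 0.30, adjusted p = 0.0288, and 0.55 with adjusted p = 0.0633). Among lower genes, Ptprg, a receptor phosphatase of another subfamily than Ptprs, was at 59.1, 58.6, 54.0 and 51.3 against 38.7, 49.7, 39.5 and 39.0 CPM (log2 fold change -0.42 ± 0.10, adjusted p = 0.0403, up to 0.108 without ISP 18, and -0.50 with adjusted p = 0.0959 without ISP 14 and ISP 18). Every ISP library was below every control library for Ptprg.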
